A study of Mus musculus with 24 samples.

Results

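The MYB and MYC transcription factors described here are 7 genes chosen by symbol, Myb, Mybl1, Mybl2, Myc, Mycn, Max and Mxd1, of the 24046 genes in the deposited count table. They were measured by RNA sequencing in 24 libraries of mouse MLL-AF9 leukaemia cells, collected from the marrow of moribund secondary transplant recipients. The libraries form 4 sets, each with 3 floxed and 3 control libraries. In the VavCre Arid1b set, Arid1b fl/fl VavCre+ leukaemias were compared with Arid1b +/+ VavCre+ leukaemias. The VavCre Arid2 set compared Arid2 fl/fl VavCre+ with Arid2 +/+ VavCre+ leukaemias. Arid1b and Arid2 encode components of SWI/SNF, which remodels chromatin, and the Vav promoter drives Cre in blood cells. The MxCre+ sets differ in that Cre is switched on by interferon signalling, here through pIpC at 12.5 µg per g body weight, injected 3 times from day 21 after transplantation. Recipients of floxed and of control MxCre+ cells alike received pIpC, and every group carries MLL-AF9 and a Cre. In both MxCre sets the 2 labels of a library contradict each other: A2 stands in titles beside a cell type of Arid1b, and A1b beside a cell type of Arid2. These sets are named MxCre-A2 and MxCre-A1b after their titles, and neither label was used to say which gene was deleted. Since nothing in the labels separates primary leukaemias within a group, p-values cover only the spread among these samples.

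MYB is a DNA-binding activator that keeps blood progenitors immature and cycling, and MLL-fusion leukaemia cells depend on it. Its relative MYBL2 works in every dividing cell, where it joins the MuvB core to switch on genes of the G2 and M phases, while MYBL1 is best known from meiosis and germinal centre B cells. MYC and MYCN activate growth, ribosome and metabolism genes as dimers with MAX at the E-box CACGTG. MXD1 dimerises with MAX as well, represses through the same sites, and is known to appear as myeloid cells mature. In mouse MLL-fusion leukaemia, Myc transcription depends on distal enhancers that SWI/SNF occupies.

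Depth ran from 12069153 to 38315410 counts per library. All 10 myeloid and leukaemia markers (among them Ptprc, Spi1, Hoxa9 and Meis1) had reads in every library. Of the 7 members, 6 passed the filter on low counts and Mycn did not. Levels are CPM (counts per 1000000, on a library size scaled by edgeR), and a gene was called at an adjusted p under 0.05 in edgeR's quasi-likelihood test over 14099 genes. Arid1b ran from 139.6 to 184.4 CPM in floxed and 185.6 to 366.7 CPM in control libraries of the VavCre Arid1b set, and Arid2 from 196.7 to 290.2 CPM in floxed and 217.8 to 442.9 CPM in control libraries of the VavCre Arid2 set; counts over a whole gene do not show whether the floxed exons were lost. A few libraries stood apart. In floxed 2 of the MxCre-A1b set, longer genes lay lower, with a Spearman correlation of -0.42 across 13440 genes between exon length and the level relative to the other libraries. In floxed 3 of the MxCre-A2 set, the 10 most abundant genes held 16.6% of all CPM. In control 3 of the VavCre Arid1b set, genes of chromosome 12 lay 0.53 higher on the log2 scale than in the other 2 controls (median of 447 genes). Reads of Y-linked genes were present in all 3 controls and no floxed library of the VavCre Arid1b set, and in all 3 floxed libraries and no control of the MxCre-A2 set. The presence of Y-linked reads and the floxed alleles cannot be told apart in these 2 sets.

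Myb was the most abundant member per length of exon, with a mean of 110.6 CPM per kb over the 24 libraries. Myc followed at 63.5 CPM per kb, Max at 29.1, Mybl2 at 18.5, Mxd1 at 6.99 and Mybl1 at 1.85. Mycn was close to absent, at 0.0184 CPM per kb. Within this order the spread of each gene differed widely. Mybl2 ranged 5.94-fold between its lowest and highest library and Myc 4.98-fold, whereas Max ranged 1.78-fold, with a coefficient of variation of 11.5%.

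None of the 6 tested members was called in any floxed against control comparison. The background differed strongly between sets: 6.57% of all tested genes were called in the VavCre Arid1b set, 1.31% in the VavCre Arid2 set, 0.0284% for MxCre-A2 and 0.00709% for MxCre-A1b. At an unadjusted p under 0.05 in the same edgeR test, 1 member passed in the VavCre Arid1b set (Myb), 2 in the VavCre Arid2 set (Mybl2 and Mxd1), 0 for MxCre-A2 and 1 for MxCre-A1b (Mxd1). The matching shares of all genes were 24%, 19.5%, 10.6% and 17.4%. DESeq2 also called 0 members in each set, while limma voom with library weights called Myb in the VavCre Arid1b set, Myb, Mybl2 and Mxd1 in the VavCre Arid2 set, and 0 members in either MxCre set. Of all 14099 genes, limma voom called 4189, 4679, 1202 and 12 in the order of the sets above, and DESeq2 1815, 1095, 196 and 478. These totals are the background for every count by these 2 tools given for a gene list below.

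For 2 of 6 members, Myb and Mybl1, all floxed libraries lay to 1 side of all controls in the VavCre Arid1b set, where 32.4% of all genes did not overlap. In the VavCre Arid2 set 4 of 6 members did not overlap (Myb, Mybl2, Myc and Mxd1), against 36.1% of all genes. All 6 members overlapped in both MxCre sets, where 15.0% of genes in the MxCre-A2 set and 14.1% in the MxCre-A1b set did not.

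**Figure D1:**
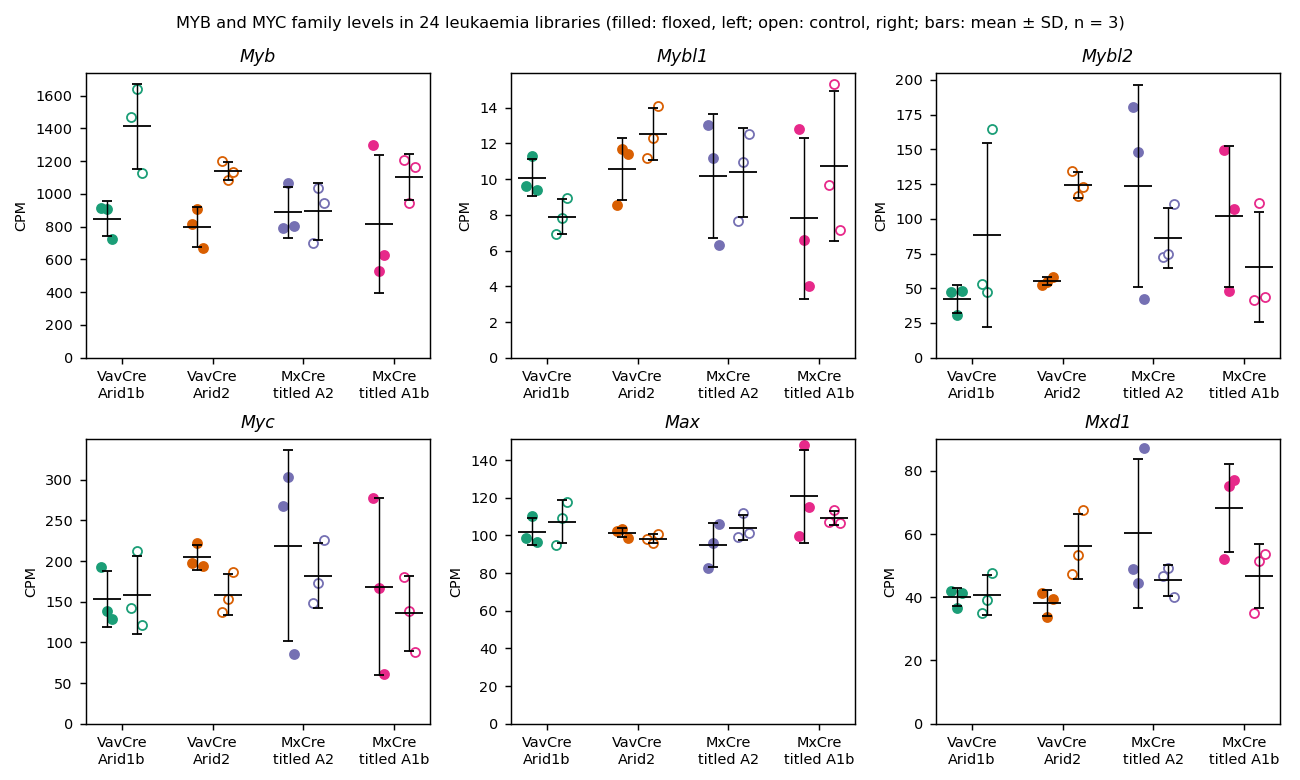
CPM of the 6 tested members in every library, with floxed libraries as filled points left of the control libraries as open points in each of the 4 sets; bars give the mean and SD of 3 libraries. Myb lies lower in every floxed library than in every control library of both VavCre sets, Max is nearly level, and Mybl2 and Myc spread widely in the floxed MxCre libraries.

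Myb (ENSMUSG00000019982, chromosome 10, 21124935 to 21160984 on the minus strand, GRCm38) was lower in the floxed libraries of both VavCre sets. In the VavCre Arid1b set it had 912, 910.0 and 727 CPM in floxed libraries 1, 3 and 4, against 1469, 1639.8 and 1126 CPM in controls 1, 2 and 3. Every floxed library lay below every control. The means were 850 ± 106 CPM in floxed and 1412 ± 261 CPM in control libraries (SD, n = 3 each), a log2 fold change of -0.73 (SE 0.26, 95% interval -1.27 to -0.19, edgeR adjusted p = 0.0923). Of all genes tested, 13.4% had a lower fold change. The call depended on the fit: the adjusted p was 0.000235 by limma voom with library weights and 0.0468 in edgeR without VavCre Arid1b control 3, MxCre-A2 floxed 3 and MxCre-A1b floxed 2, the 3 libraries that stood apart. With a term for libraries with Y-linked reads the log2 fold change was -0.12 (edgeR adjusted p = 0.871). Only the VavCre Arid2 floxed group and both MxCre-A1b groups held libraries with and without such reads, and the term rests on these. It therefore cannot separate Y-linked reads from the floxed alleles in the VavCre Arid1b set. The same limit holds wherever this term is used below for the VavCre Arid1b or MxCre-A2 set. In bulk RNA, fewer cells of a type and less RNA per cell cannot be told apart.

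For the VavCre Arid2 set, Myb had 814.5, 909 and 667 CPM in floxed libraries 1, 2 and 3, against 1200.0, 1087 and 1136 CPM in the controls. The groups again did not overlap. Their means were 797 ± 122 CPM in floxed and 1141 ± 56.7 CPM in control libraries (SD, n = 3 each), and the log2 fold change was -0.52 (SE 0.26, 95% interval -1.06 to 0.02, edgeR adjusted p = 0.277). By limma voom with library weights it was called (adjusted p = 0.0357). The effects of the 2 VavCre sets differed by -0.21 on the log2 scale (VavCre Arid1b minus VavCre Arid2, 95% interval -0.98 to 0.55, edgeR adjusted p = 0.911), where 0.0142% of genes differed.

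The MxCre sets gave no such separation for Myb. In the MxCre-A2 set it had 792, 1065 and 803 CPM in floxed libraries, against 699, 1037 and 947 CPM in controls (log2 fold change -0.01, SE 0.26, edgeR adjusted p = 0.994). In the MxCre-A1b set it had 1301, 528 and 626 CPM in floxed libraries 1, 2 and 3, against 1207, 944 and 1164 CPM in controls. This floxed group thus held both a library above all its controls and a pair below them, and 528 CPM, in the library where longer genes lay lower, was the lowest of all 24. Myb has the longest exon sequence of the members, 8933 bases, and the part of gene length in this value was not tested. The fold change there was -0.43 (SE 0.26, edgeR adjusted p = 0.390). Without floxed 1 it was -0.94 (edgeR adjusted p = 0.012), so that single library decided the call.

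Myb and Mybl2 had negative log2 fold changes in both VavCre sets, and their promoters are shown because both hold the same letters close to the start. The 150 bases before the RefSeq start of each gene are given 5′ to 3′ on the gene's strand (GRCm38.p6), at chr10:21160985-21161134 on the minus strand for Myb and chr2:163054485-163054634 on the plus strand for Mybl2. Capitals mark TTGGCGGG, an E2F-type motif chosen after these sequences were read and searched on both strands.
Myb: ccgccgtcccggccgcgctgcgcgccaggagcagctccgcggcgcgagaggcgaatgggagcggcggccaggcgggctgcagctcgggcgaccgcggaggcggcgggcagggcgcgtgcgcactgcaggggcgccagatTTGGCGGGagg
Mybl2: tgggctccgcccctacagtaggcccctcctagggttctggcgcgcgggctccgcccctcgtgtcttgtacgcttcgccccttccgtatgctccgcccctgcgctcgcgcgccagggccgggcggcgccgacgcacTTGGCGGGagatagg
The match ends 4 bases before the start in Myb and 8 bases before it in Mybl2, and 320 of 32851 mouse promoter windows of 300 bases hold it (0.974%). RefSeq windows were found for 5 of the 7 members. None of the other 3 (Mycn, Max and Mxd1) held these letters. Another E2F-type motif searched on both strands, TTTGGCGC, was in Mycn at 2 places, 183 to 176 and 168 to 161 bases before its start, and in 0.514% of windows. Max held the E-box CACGTG across its start, as did 7.15% of windows at any position.

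Mybl1 (chromosome 1, 9667415 to 9700209) was the least abundant of the tested members. In the VavCre Arid1b set it had 9.59, 11.3 and 9.37 CPM in floxed libraries, against 6.95, 7.83 and 8.93 CPM in controls. The groups did not overlap, but the interval of the difference was wide, with a log2 fold change of 0.35 (95% interval -0.40 to 1.10, edgeR adjusted p = 0.589). The VavCre Arid2 set gave 8.54, 11.7 and 11.4 CPM in floxed libraries, against 11.2, 12.3 and 14.1 CPM in controls (log2 fold change -0.25, edgeR adjusted p = 0.745). In the MxCre sets it ran from 6.31 to 13.0 CPM in floxed and 7.67 to 12.5 CPM in control libraries of the MxCre-A2 set, and from 4.02 to 12.8 CPM in floxed and 7.14 to 15.3 CPM in control libraries of the MxCre-A1b set (edgeR adjusted p = 0.991 and 0.528).

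Mybl2 (chromosome 2, 163054687 to 163084688) did not overlap in the VavCre Arid2 set. It had 52.3, 54.6 and 58.2 CPM in floxed libraries 1, 2 and 3, against 134, 116 and 123 CPM in the controls. The floxed libraries were close together and far below the lowest control. With means of 55.0 ± 2.97 CPM in floxed and 124 ± 9.12 CPM in control libraries (SD, n = 3 each), the log2 fold change was -1.18 (SE 0.53, 95% interval -2.29 to -0.07, edgeR adjusted p = 0.228). Fitted to these 6 libraries alone, edgeR gave an adjusted p of 0.00931. It was 0.0347 in edgeR without the 3 libraries that stood apart, 0.00529 by limma voom with library weights and 0.147 by DESeq2.

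In the VavCre Arid1b set, Mybl2 had 47.6, 30.4 and 48.2 CPM in floxed libraries 1, 3 and 4, against 52.7, 47.5 and 165 CPM in controls 1, 2 and 3. Control 3 stood far above the other 5 libraries, which overlapped. The log2 fold change was -1.07 (SE 0.53, edgeR adjusted p = 0.226), and it was -0.25 without that control (edgeR adjusted p = 0.868). By group mean, the floxed libraries of both VavCre sets were the lowest of the 8 groups, 42.1 ± 10.1 CPM in VavCre Arid1b floxed and 55.0 ± 2.97 CPM in VavCre Arid2 floxed libraries. Single high libraries raised other means, as control 3 did here. Controls 1 and 3 of the MxCre-A1b set, at 41.3 and 43.5 CPM, lay below every VavCre Arid2 floxed library, while control 2 was at 111 CPM.

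The highest value of Mybl2 was in a floxed MxCre library. The MxCre-A2 set had 181, 148 and 41.9 CPM in floxed libraries 1, 2 and 3, against 72.3, 74.8 and 111 CPM in controls (log2 fold change 0.52, edgeR adjusted p = 0.789). The MxCre-A1b set had 149.6, 47.9 and 107 CPM in floxed libraries, against 41.3, 111 and 43.5 CPM in controls (log2 fold change 0.64, edgeR adjusted p = 0.550). Floxed and control libraries overlapped in both sets, and in each the floxed libraries split into high and low ones. A microRNA gene, Mir7003, lies inside Mybl2 and is counted separately, so that reads there may be divided between both.

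**Figure D2:**
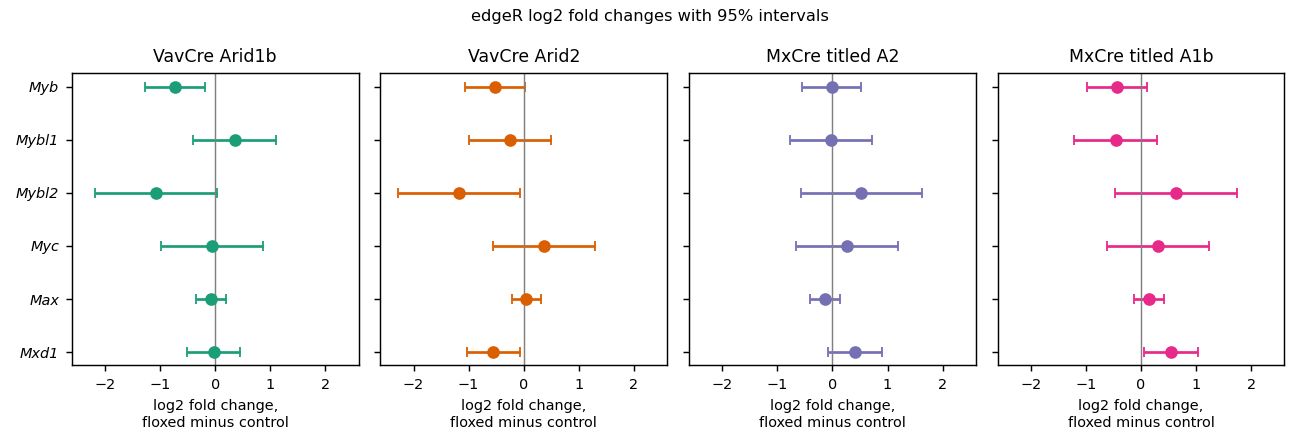
edgeR log2 fold changes, floxed minus control, of the 6 tested members with their 95% intervals, in a panel for each of the 4 sets. The intervals of Mybl2 and Myc are the widest and those of Max the narrowest; 4 intervals exclude 0, those of Myb in the VavCre Arid1b set, Mybl2 and Mxd1 in the VavCre Arid2 set and Mxd1 in the MxCre-A1b set, and none of these passed the threshold after adjustment.

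MYBL2 binds the MuvB core, which pairs with E2F4, p130 and DP proteins in resting cells (the DREAM complex) and with MYBL2 and then FOXM1 in cycling cells. Of 17 genes for these partners, edgeR called 1 in the VavCre Arid1b set, E2f2, while DESeq2 called 2 (E2f2 and E2f5) and limma voom 5 (Rbbp4, E2f1, E2f2, Tfdp1 and Dyrk1a). This E2F activator rose to 137 ± 62.5 CPM in floxed libraries, against 46.7 ± 7.02 CPM in controls (SD, n = 3 each; log2 fold change 1.55, SE 0.44, edgeR adjusted p = 0.0434). The call was lost under 10 of 14 alternatives. It was lost with the term for Y-linked reads, without the filter on low counts and without the 3 libraries that stood apart. A fit to the compared groups alone and the replicate block lost it too. So did leaving out any 1 of the 6 libraries other than floxed 1 (edgeR adjusted p from 0.0215 to 0.161). E2f5, a repressor-type E2F, was at 4.92 ± 2.34 CPM in floxed and 2.34 ± 0.311 CPM in control libraries (edgeR adjusted p = 0.0615). The dimer partner Tfdp1 was at 178 ± 28.0 CPM in floxed and 248 ± 4.28 CPM in control libraries (edgeR adjusted p = 0.0922). edgeR called no partner gene in the other 3 sets, where its unadjusted p was under 0.05 for 2, 0 and 0 of them, DESeq2 called 0 in each, and limma voom called 5, 1 and 0. The list's median log2 fold change was -0.07 in the VavCre Arid1b set, -0.03 for VavCre Arid2, -0.10 for MxCre-A2 and 0.18 for MxCre-A1b.

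The 20 G2/M genes that MYBL2 and FOXM1 complexes bind include Prc1, which bundles spindle microtubules, and Tpx2, which activates Aurora A. In the VavCre Arid2 set 19 of the 20 had a negative fold change, with a median of -0.41 against 0.00 over all genes tested. Their summed level was 2013 to 2581 CPM in floxed libraries, against 2867 to 3026 CPM in controls, without overlap. Prc1, with the smallest p, was at 99.1 ± 7.64 CPM in floxed and 140.5 ± 14.3 CPM in control libraries (edgeR adjusted p = 0.107). edgeR called 0 of the 20, with 5 at an unadjusted p under 0.05; DESeq2 called 1 (Prc1) and limma voom called 12, all lower.

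G2/M genes in the VavCre Arid1b set were negative for 17 of 20, with a median of -0.22 against -0.06 over all genes. The MxCre sets had the opposite majority, 14 of 20 positive in the MxCre-A2 set (median 0.09 against 0.02) and 15 of 20 positive in the MxCre-A1b set (median 0.19 against 0.01). Summed levels of floxed and control libraries overlapped in all 3 sets. For VavCre Arid1b they were 2345 to 2472 CPM in floxed libraries, against 2700, 2377 and 3213 CPM in controls 1, 2 and 3. The part of control 3 in the negative fold changes of that set was not tested. edgeR called 0 in each of these 3 sets, with 1, 1 and 3 genes at an unadjusted p under 0.05, DESeq2 called 0, 1 and 0, and limma voom called 1, 1 and 0. The smallest p was for Tpx2 in VavCre Arid1b (edgeR adjusted p = 0.199), for Kif23, a cytokinesis kinesin, in the MxCre-A2 set (0.210), and for Cdk1 in the MxCre-A1b set (0.147).

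Across all 24 libraries, the mean log2 CPM of the 20 G2/M genes and the level of Mybl2 had a Pearson r of 0.71 and a Spearman rho of 0.69, or r = 0.61 without the 2 libraries farthest from the median of Mybl2. Within sets of 6 libraries r was 0.87 for VavCre Arid1b, 0.85 for VavCre Arid2, 0.90 for the MxCre-A2 set and 0.37 for the MxCre-A1b set. After subtraction of each group's mean, r over the 24 libraries was 0.59. Control 3 of the VavCre Arid1b set had the highest value of both in its set, 165 CPM of Mybl2 and a G2/M mean of 7.02. Its part in the r of that set was not tested. The correlations are descriptions of libraries that share their sets and their scaling.

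Myc (chromosome 15, 61985391 to 61990374) did not overlap in the VavCre Arid2 set, where it had 197, 222 and 194 CPM in floxed libraries, against 137, 153 and 186 CPM in controls. All 3 floxed libraries lay above the highest control by a small margin. Means of 205 ± 15.4 CPM in floxed and 159 ± 25.1 CPM in control libraries (SD, n = 3 each) gave a log2 fold change of 0.37 (SE 0.44, 95% interval -0.56 to 1.29, edgeR adjusted p = 0.691). In the VavCre Arid1b set Myc had 192, 138 and 129 CPM in floxed libraries, against 142, 213 and 121 CPM in controls (log2 fold change -0.05, 95% interval -0.97 to 0.87, edgeR adjusted p = 0.960). These groups were interleaved.

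Both extremes of Myc lay among the floxed MxCre libraries. In the MxCre-A2 set it had 268, 304 and 85.5 CPM in floxed libraries 1, 2 and 3, against 148 to 226 CPM in controls (log2 fold change 0.27, 95% interval -0.66 to 1.19, edgeR adjusted p = 0.886). In the MxCre-A1b set it had 278, 167 and 61.0 CPM in floxed libraries 1, 2 and 3, against 88.1 to 181 CPM in controls (log2 fold change 0.32, 95% interval -0.61 to 1.24, edgeR adjusted p = 0.748). In each set, therefore, the highest and the lowest of the 6 libraries were both floxed. The library at 61.0 CPM also had a summed level of 18 immediate-early genes, such as Fos and Egr1, of 6822 CPM, against 342 to 911 CPM in the other 5 libraries of its set, and their part in the level of Myc was not tested.

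Mycn (chromosome 12, 12936093 to 12941914) had 29 counts over all 24 libraries and was not tested. It had 0 counts in 12 of them, where a floor of 3 counts allows a level of up to 0.0781 to 0.195 CPM (counting error only). Its highest levels were 0.416 CPM in floxed 3 of the MxCre-A2 set and 0.244 CPM in floxed 3 of the VavCre Arid2 set, so MYCN transcripts were at or near the detection limit in every group.

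Max (chromosome 12, 76937269 to 76962201), the shared partner of MYC and MXD proteins, was the steadiest member. The VavCre Arid1b set had 98.8, 110.0 and 96.8 CPM in floxed libraries, against 94.9, 109 and 118 CPM in controls. The VavCre Arid2 set had 102.5, 103 and 98.7 CPM in floxed libraries, against 98.1, 96.0 and 101 CPM in controls. The groups overlapped in both. The 95% intervals of the log2 fold changes were -0.34 to 0.19 and -0.22 to 0.31 in these VavCre sets (edgeR adjusted p = 0.765 and 0.875). The highest value, 118 CPM in control 3 of the VavCre Arid1b set, lay in the library where genes of chromosome 12 were higher in general.

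In the MxCre-A2 set, Max had 82.8, 95.8 and 106 CPM in floxed libraries, against 99.3, 112 and 101 CPM in controls (95% interval of the log2 fold change -0.40 to 0.13, edgeR adjusted p = 0.769). In the MxCre-A1b set it had 99.6, 148 and 115 CPM in floxed libraries, against 107, 113 and 107 CPM in controls (95% interval -0.12 to 0.41, edgeR adjusted p = 0.575). The value of 148 CPM, in the library where longer genes lay lower, was the highest of all 24.

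Mxd1 (chromosome 6, 86647042 to 86669161), the repressive partner of MAX, had a negative fold change in the VavCre Arid2 set and positive ones in both MxCre sets. For the VavCre Arid1b set the log2 fold change was -0.03. Mxd1 was called by edgeR in none of these sets, and a difference between Cre lines was not tested. In the VavCre Arid2 set it had 41.5, 33.6 and 39.5 CPM in floxed libraries, against 47.4, 53.5 and 67.5 CPM in controls. Every floxed library lay below every control. The means of 38.2 ± 4.07 CPM in floxed and 56.1 ± 10.3 CPM in control libraries (SD, n = 3 each) gave a log2 fold change of -0.55 (SE 0.23, 95% interval -1.04 to -0.07, edgeR adjusted p = 0.195). By limma voom with library weights the adjusted p was 0.0439. Granulocytic maturation genes lay lower in the same libraries: their summed level was 686 to 3312 CPM in floxed libraries, against 5209 to 11448 CPM in controls, 15 of 17 had a negative fold change, none was at 0 in any library, and their part in the level of Mxd1 was not tested.

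In the MxCre-A1b set, Mxd1 had 52.1, 75.2 and 77.1 CPM in floxed libraries, against 35.0, 51.4 and 53.8 CPM in controls. Floxed 2 and 3 lay above every control and floxed 1 among them. The log2 fold change was 0.54 (SE 0.23, 95% interval 0.06 to 1.03, edgeR adjusted p = 0.235). The MxCre-A2 set had 48.9, 44.6 and 87.3 CPM in floxed libraries, against 46.8, 49.3 and 39.9 CPM in controls (log2 fold change 0.41, edgeR adjusted p = 0.560). Only floxed 3 exceeded the controls there. Granulocytic genes were positive for 14 of 17 in the MxCre-A2 set and for 16 of 17 in the MxCre-A1b set, and their highest sums, 14820 and 26442 CPM, were in floxed 3 and floxed 2 of these sets. The VavCre Arid1b set gave 42.0, 36.8 and 41.2 CPM in floxed libraries, against 35.2, 39.3 and 47.6 CPM in controls (log2 fold change -0.03, edgeR adjusted p = 0.963), with full overlap.

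Across the 24 libraries Mxd1 and the mean of the 17 granulocytic genes had a Pearson r of 0.88 and a Spearman rho of 0.87, or r = 0.89 without the 2 libraries farthest from the median of Mxd1. The values of r within sets were 0.74 for VavCre Arid1b, 0.97 for VavCre Arid2, 0.98 for the MxCre-A2 set and 0.88 for the MxCre-A1b set. With each group's mean subtracted, r was 0.81. Myc and Mxd1 had r = -0.48 and rho = -0.37, and r = -0.12 without floxed 3 of the MxCre-A1b set and floxed 3 of the MxCre-A2 set, the libraries farthest from the median of Myc. Within sets r was -0.18 for VavCre Arid1b, -0.48 for VavCre Arid2, -0.83 for MxCre-A2 and -0.46 for MxCre-A1b. It was -0.70 over 24 libraries with each group's mean subtracted.

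The ratio of Myc to Mxd1 within a library, in CPM and not per length, was 4.75, 6.61 and 4.92 in VavCre Arid2 floxed libraries, against 2.89, 2.86 and 2.76 in their controls. The groups did not overlap, which follows from the separation of Myc and of Mxd1 in this set and is not a further result. In the VavCre Arid1b set it was 4.58, 3.77 and 3.12 in floxed libraries, against 4.03, 5.43 and 2.55 in controls, and the groups overlapped. The MxCre-A2 set had 5.48, 6.81 and 0.979 in floxed libraries, against 3.17 to 5.66 in controls, and the MxCre-A1b set had 5.33, 2.22 and 0.792 in floxed libraries, against 1.64 to 5.15 in controls. Both values under 1, where Mxd1 exceeded Myc in CPM, were in floxed 3 of an MxCre set. Per kb of exon, Myc was the higher in every library, with at least 22.47 CPM per kb against at most 12.35 for Mxd1.

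**Figure D3:**
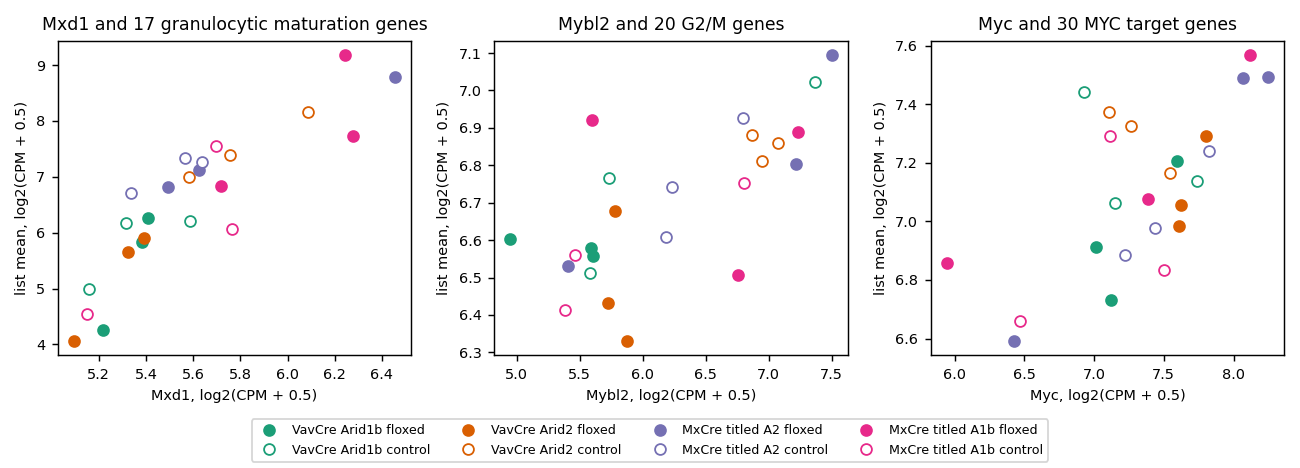
Levels of Mxd1, Mybl2 and Myc (log2 of CPM plus 0.5, horizontal) against the mean of a gene list on the same scale (vertical) in 24 libraries, coloured by set, filled for floxed and open for control. Mxd1 follows the 17 granulocytic maturation genes (r = 0.88), Mybl2 the 20 G2/M genes less closely (r = 0.71) and Myc the 30 MYC target genes with wide scatter (r = 0.65).

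Of the other 9 genes of the MAX and MLX network, edgeR and DESeq2 each called 1 in the VavCre Arid1b set, Mlxipl, and limma voom called 6 (Mycl, Mxd3, Mxd4, Mnt, Mlx and Mlxipl). Mlxipl, the glucose-responsive factor ChREBP, rose in the VavCre Arid1b set to 1.70 ± 0.621 CPM in floxed libraries, against 0.176 ± 0.0709 CPM in controls (SD, n = 3 each; log2 fold change 3.21, SE 0.86, edgeR adjusted p = 0.0332). This call too was lost under 8 of 14 alternatives. Among them were the Y term and leaving out any library of the set but floxed 1 (edgeR adjusted p from 0.0406 to 0.127). In the MxCre-A2 set it was at 0.239 ± 0.0271 CPM in floxed and 2.41 ± 1.26 CPM in control libraries, without overlap (log2 fold change -3.29, edgeR adjusted p = 0.213). Mycl, the third MYC paralogue, was at 70.9 ± 18.5 CPM in floxed and 9.96 ± 10.4 CPM in control libraries of the VavCre Arid1b set (log2 fold change 2.83, SE 1.25, edgeR adjusted p = 0.174). In the VavCre Arid2 set it was at 46.2 ± 11.9 CPM in floxed and 5.71 ± 3.05 CPM in control libraries (log2 fold change 3.01, SE 1.25, edgeR adjusted p = 0.196). Mycl did not overlap in either VavCre set. In contrast to limma voom, edgeR called none of the MAX-binding repressors Mnt, Mga, Mxi1, Mxd3 and Mxd4 in any set.

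The network's median log2 fold change was 0.18 in the VavCre Arid1b set, 0.31 for VavCre Arid2, -0.01 for MxCre-A2 and 0.07 for MxCre-A1b. In the 3 sets without a call, edgeR's unadjusted p was under 0.05 for 3, 1 and 3 of the 9 genes, DESeq2 called 0, 1 and 0, and limma voom called 7, 1 and 0.

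The 30 MYC target genes are mostly genes of ribosome production, such as Ncl, Fbl and Nop56, and of nucleotide and polyamine synthesis, such as Cad and Odc1. In the VavCre sets most had negative fold changes, 26 of 30 in the VavCre Arid1b set (median -0.22 against -0.06 over all genes) and 22 of 30 in the VavCre Arid2 set (median -0.18 against 0.00). In the MxCre sets most had positive ones, 27 of 30 in the MxCre-A2 set (median 0.19 against 0.02) and 28 of 30 in the MxCre-A1b set (median 0.25 against 0.01). edgeR called 0 of the 30 in any set, with 1, 1, 0 and 7 at an unadjusted p under 0.05 in the order of the sets above. DESeq2 called 0, 0, 0 and 1, and limma voom 2, 4, 1 and 0. The smallest p was for Odc1 in the VavCre Arid1b set (78.7 ± 19.0 CPM in floxed and 175 ± 118 CPM in control libraries, edgeR adjusted p = 0.108), and for Fbl in the MxCre-A1b set (93.9 ± 15.9 CPM in floxed and 61.1 ± 6.94 CPM in control libraries, 0.112). In the other 2 sets it was for Tfrc, the transferrin receptor gene, which is in the erythroid list too. Tfrc was at 75.5 ± 8.49 CPM in floxed and 154 ± 33.6 CPM in control libraries of the VavCre Arid2 set, without overlap (log2 fold change -1.03, edgeR adjusted p = 0.185), and at 184 ± 63.8 CPM in floxed and 111 ± 25.9 CPM in control libraries of the MxCre-A2 set (0.561).

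Summed over the list, MYC targets overlapped between floxed and control libraries in all 4 sets, at 4616 to 6696 CPM in floxed and 5897 to 8203 CPM in control libraries of the VavCre Arid1b set, for example. The highest of these controls was control 3, against 5897 and 6163 CPM in controls 1 and 2. Its part in the negative fold changes of that set was not tested. The mean of the MYC targets and the level of Myc had r = 0.65 and rho = 0.55 over 24 libraries. Without the 2 libraries farthest from the median of Myc r was 0.57, and after subtraction of each group's mean it was 0.72. This relation was not shared by the sets: r was 0.11 for VavCre Arid1b, -0.56 for VavCre Arid2, 0.98 for the MxCre-A2 set and 0.71 for the MxCre-A1b set. In the VavCre Arid2 set, Myc was thus higher in floxed libraries while 22 of its 30 listed targets had negative fold changes.

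Of 18 genes described as MYB targets in blood cells, 17 passed the filter, and edgeR called 3 in the VavCre Arid1b set. DESeq2 called 4 there, adding Bcl2, and limma voom 8, of which 5 were higher and 3 lower. Kit, the stem cell factor receptor, fell to 35.7 ± 16.7 CPM in floxed libraries, against 137 ± 53.6 CPM in controls (SD, n = 3 each; log2 fold change -1.93, SE 0.49, edgeR adjusted p = 0.0274). Gfi1, a repressor needed in granulocyte precursors, fell to 48.3 ± 15.1 CPM in floxed libraries, against 233 ± 98.6 CPM in controls (log2 fold change -2.27, SE 0.65, edgeR adjusted p = 0.0443). Birc3, an apoptosis inhibitor, rose to 75.7 ± 19.4 CPM in floxed libraries, against 37.1 ± 5.72 CPM in controls (log2 fold change 1.03, SE 0.30, edgeR adjusted p = 0.0442). Of 14 alternatives, Kit lost its call under 7, Gfi1 under 9 and Birc3 under 9. All 3 calls were lost with the Y term. On leaving out 1 library, Kit stayed called without control 3 or floxed 4 (adjusted p from 0.0253 to 0.104 over the 6 libraries), Gfi1 without control 2 (0.0483 to 0.181) and Birc3 without floxed 1 (0.03 to 0.157), and each was lost without any other. The list thus moved in both directions, with 11 of 17 fold changes negative and a median of -0.19. In the same floxed libraries 10 of 12 dendritic cell and MHC class II genes rose (edgeR), among them Cd74, H2-Aa and Ciita, with a summed level of 1234 to 3079 CPM in floxed and 76.0 to 278 CPM in control libraries, and their part in these results was not tested.

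edgeR called no MYB target in the other 3 sets, where its unadjusted p was under 0.05 for 6 (VavCre Arid2), 3 (MxCre-A2) and 1 (MxCre-A1b) of the 17. DESeq2 called 3, 0 and 1 of them, and limma voom 8, 1 and 0. The smallest p in the VavCre Arid2 set was for Flt3, a progenitor receptor kinase that is in the dendritic list too, at 639 ± 479 CPM in floxed and 22.9 ± 12.1 CPM in control libraries (log2 fold change 4.80, edgeR adjusted p = 0.105). For the MxCre sets it was Tal1 in the MxCre-A2 set (edgeR adjusted p = 0.288) and Kit in the MxCre-A1b set, at 39.6 ± 25.5 CPM in floxed and 137 ± 31.5 CPM in control libraries (log2 fold change -1.79, edgeR adjusted p = 0.118). Medians were -0.07, -0.02 and -0.12. Over 24 libraries the mean of these targets and the level of Myb had r = -0.22 and rho = -0.22, and r = -0.10 with each group's mean subtracted. Within sets r was -0.47 for VavCre Arid1b, -0.77 for VavCre Arid2, 0.56 for MxCre-A2 and -0.05 for MxCre-A1b.

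**Figure D4:**
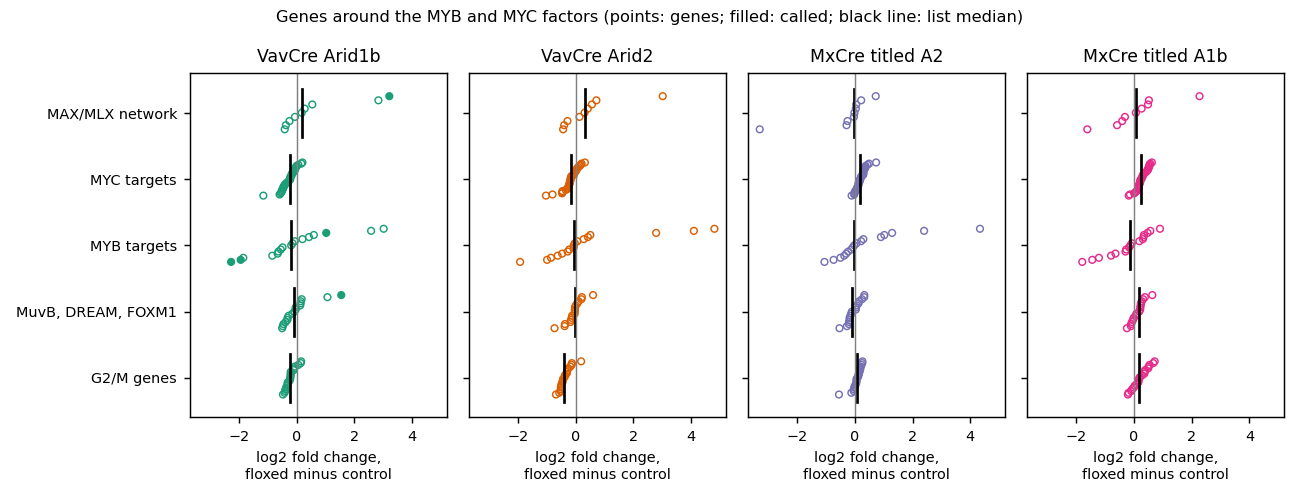
edgeR log2 fold changes, floxed minus control, of the genes in 5 lists around the MYB and MYC factors, in a panel for each of the 4 sets; each point is a gene, filled where called, and the black lines are list medians. MYC targets and G2/M genes lie slightly below 0 in both VavCre sets and slightly above it in both MxCre sets, and the 5 called genes are all in the VavCre Arid1b set.

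Coactivators and stability regulators of MYB and MYC, such as Ep300, Crebbp and the ubiquitin ligase gene Fbxw7, were called for 0 of 24 genes in every set by edgeR, with 5, 6, 0 and 2 at an unadjusted p under 0.05. DESeq2 also called 0 in each, and limma voom 7, 10, 1 and 0. Their median log2 fold changes were -0.17, 0.10, -0.06 and -0.07 in the order VavCre Arid1b, VavCre Arid2, MxCre-A2 and MxCre-A1b. The genes with the smallest p in the first 3 of these sets were Pias1 (edgeR adjusted p = 0.182), Aurka (0.142) and Fbxw7 (0.616).

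Genes beside the members were called for 0 of 4 in each set by edgeR, with 1, 1, 0 and 0 at an unadjusted p under 0.05, 1, 0, 0 and 0 by DESeq2 and 1, 2, 0 and 0 by limma voom. Pvt1, the noncoding neighbour of Myc, was at 0.519 ± 0.323 CPM in floxed and 2.05 ± 0.339 CPM in control libraries of the VavCre Arid2 set (log2 fold change -1.97, edgeR adjusted p = 0.153), the set in which Myc itself was higher in floxed libraries. Ddx1, an RNA helicase gene beside Mycn on chromosome 12, was at 81.4 ± 16.7 CPM in floxed and 161 ± 85.4 CPM in control libraries of the VavCre Arid1b set (edgeR adjusted p = 0.0904), the set with the raised chromosome 12 library among its controls. In the MxCre sets the smallest p was for Ahi1 (edgeR adjusted p = 0.772) and for Hbs1l (0.415), the genes next to Myb. Medians of the 4 genes were -0.04, -0.60, -0.19 and 0.23.

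No member differed among the 8 groups as a whole after adjustment. In edgeR's F test over all groups, which called 7.98% of genes, the smallest adjusted p-values were 0.0853 for Mxd1 and 0.156 for Myb. They were 0.233 for Mybl2, 0.414 for Max, 0.694 for Mybl1 and 0.839 for Myc. The unadjusted p was under 0.05 for Mxd1 (0.0122) and Myb (0.042). DESeq2 called Mxd1 (adjusted p = 0.0152), and limma voom with library weights called Myb, Mybl2, Myc and Mxd1. Of all 14099 genes, DESeq2 called 3801 in this test and limma voom 10242, so calls by limma voom were common for any gene.

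Ordered by group mean, Myb ran from 1412 ± 261 CPM in VavCre Arid1b control libraries down through the other 3 control groups to the 4 floxed groups, ending at 797 ± 122 CPM in VavCre Arid2 floxed libraries. All neighbours in this order overlapped. In the order for Mybl2, the 2 lowest groups, VavCre Arid2 floxed (52.3 to 58.2 CPM) and VavCre Arid1b floxed (30.4 to 48.2 CPM), did not overlap, and every other pair of neighbours did. In that for Mybl1, VavCre Arid1b floxed and VavCre Arid1b control libraries were the neighbours without overlap. Myc was highest in floxed libraries of the MxCre-A2 set (219 ± 117 CPM) and lowest in controls of the MxCre-A1b set (136 ± 46.3 CPM), and Mxd1 was highest in floxed libraries of the MxCre-A1b set (68.1 ± 13.9 CPM) and lowest in VavCre Arid2 floxed libraries. All neighbouring groups overlapped for Myc, Mycn, Max and Mxd1.

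Floxed effects on the members did not pass the test of a difference between sets sharing a Cre. Between the VavCre sets the edgeR adjusted p ran from 0.635 (Mxd1, difference 0.53, 95% interval -0.15 to 1.21) to 0.989 (Mybl2, 0.10, -1.45 to 1.66). Between the MxCre sets, where 0.192% of genes differed, it ran from 0.431 (Max, -0.28, -0.66 to 0.10) to 0.977 (Myc, -0.05, -1.36 to 1.26). Myb differed by 0.42 there (95% interval -0.34 to 1.18, edgeR adjusted p = 0.575), and the adjusted p was 0.0407 without floxed 1 of the MxCre-A1b set.

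The genes most like each member in log2 CPM over the 24 libraries were taken from 11606 tested genes with a mean of at least 2 CPM. For Mybl2 they were Mthfd1l (r = 0.93), which encodes a mitochondrial folate enzyme, G630025P09Rik (0.93) and Chd1l (0.93), a chromatin remodeller. Myc was most like Pet112 (r = 0.87), Akap1 (0.86) and Rrp1b (0.85), a ribosomal RNA processing gene. Mxd1 was most like AA467197 (r = 0.91), Lcn2 (0.86), a granule protein gene of the granulocytic list, and Gm5416 (0.83). For Myb they were Slc1a3 (r = 0.83), a glutamate transporter gene, Uhrf1bp1 (0.80) and Prpf3 (0.80), a splicing factor gene. Mybl1 was most like Ept1 (r = 0.85), Wdr55 (0.85) and Oxsr1 (0.83), and Max like Kdm1b (0.82), a histone demethylase gene, Sptssa (0.79) and Med7 (0.76). For these genes of Max, Spearman rho was lower, at 0.68, 0.51 and 0.56, and the highest value of Max lay in the library where longer genes lay lower. Among the genes named for the other members rho ran from 0.73 to 0.95. With each group's mean subtracted, r between the members and the genes named for them ran from 0.66 to 0.96. Among the members themselves the highest r was 0.66, between Mybl1 and Myc.

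Markers of other cell types varied with the sets. Monocyte and macrophage genes rose for 4 of 15 in the VavCre Arid1b set (Ccr2, Cx3cr1, Cd163 and Klf4), with summed levels of 2754 to 4721 CPM in floxed and 537 to 1111 CPM in control libraries of that set. Of 18 immediate-early genes, 3 rose in the VavCre Arid1b set, Klf2, Klf6 and Atf3, and edgeR called 0 in the others, with 4, 4 and 15 at an unadjusted p under 0.05, 2, 0 and 7 called by DESeq2 and 4, 2 and 1 by limma voom. Their summed level in the MxCre-A1b set was 6822 CPM in floxed 3, 400 CPM in floxed 1 and 911 CPM in floxed 2. Its controls ran from 342 to 491 CPM. By edgeR, single genes were called among the leukaemia markers (Cebpa, higher), granulocytic genes (Cebpe, lower), T and NK genes (Gzmb, lower) and stromal and endothelial genes (Vwf, higher) of the VavCre Arid1b set, and among the granulocytic (Mmp9, lower) and B lineage genes (Cd79b, lower) of the VavCre Arid2 set. In the VavCre Arid2 set, 9 of 17 granulocytic and 8 of 12 B lineage genes had an unadjusted edgeR p under 0.05. DESeq2 called 9 and 2 of them there and limma voom 10 and 7, all lower. None of 11 erythroid genes was called by edgeR in any set, with 0, 1, 10 and 0 at an unadjusted p under 0.05, 0, 0, 1 and 0 by DESeq2 and 5, 1, 0 and 0 by limma voom; their sum reached 965 CPM in floxed 3 of the MxCre-A2 set, the library with the highest Mxd1.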

How the data were processed

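Per the labels' protocols, RNA was extracted with TRIzol, selected for poly(A) and made into directional libraries. The submitters' processing notes name STAR and mm10. The counter, annotation, strand setting and versions were not given in the sources used here. Whole-number read counts per gene symbol, without normalization, were deposited by the authors. 0 columns were left unused. Because the strand setting is not given, reads of Myb and of its antisense gene Gm26577 cannot be told apart.

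The members and the 16 gene lists were chosen with earlier results of these data known. Counts were filtered with filterByExpr (minimum count 10, total 15; 2194 genes had no read) with TMM scaling. edgeR 4.0.16 in R 4.3.3 fitted a quasi-likelihood model with robust estimation to 24 libraries and 8 group means (16 residual degrees of freedom, common biological coefficient of variation 0.4). p-values are Benjamini-Hochberg adjusted over 14099 genes and two-sided. The fit was tested on simulated data. limma 3.58.1 and DESeq2 1.42.0 were alternatives. Exon lengths and gene positions are from GENCODE M21 (GRCm38), with a length for 95.3% of tested genes; promoters are from RefSeq. Named list genes are up to 3 called genes with the smallest p per comparison, or the 1 with the smallest p; partner genes of the complexes could be named whether called or not. Monocyte and marker genes named beyond this were chosen after their values were seen. Correlations are given as descriptions, without p. A result on the cofactor list is not reported here.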

Additional observations from a re-analysis of the deposited data

How the results depend on the processing

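Alternatives covered DESeq2, RLE scaling, no filter on low counts, limma voom with library weights, a term for libraries with Y-linked reads, leaving out 3 libraries that stood apart, a fit to the compared groups alone, a replicate block and leaving out each library. Counts are of called genes, in the order VavCre Arid1b, VavCre Arid2, MxCre-A2, MxCre-A1b, difference of VavCre effects, difference of MxCre effects, all 8 groups; the cause of these differences was not tested. edgeR as reported gave 926, 185, 4, 1, 2, 27 and 1125. DESeq2 gave 1815, 1095, 196, 478, 252, 604 and 3801. limma voom gave 4189, 4679, 1202, 12 and 2484 for the first 5 and 10242 for the last. The Y term gave 101, 104, 0, 2 and 4 for the first 5 and 673 for the last. Without the 3 libraries the second to seventh counts were 1148, 34, 8, 142, 0 and 3173. Fits to the compared groups alone gave 927 (VavCre Arid2), 0 (MxCre-A1b), 24 and 0 (both differences). Without the filter, counts were 103 (VavCre Arid2), 0 (MxCre-A1b) and 14 (difference of MxCre effects). Leaving out 1 library gave 64 to 742, 15 to 228, 0 to 17, 0 to 1539, 2 to 13, 2 to 1428 and 390 to 2734. The highest count for MxCre-A1b, 1539, was without floxed 1.

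With the replicate number as a block, called genes were 1 (VavCre Arid1b), 3 (VavCre Arid2) and 1 (MxCre-A2), and 1 for the difference of MxCre effects, and the log2 fold change of Myc in VavCre Arid1b was 0.31. No member was called. Correlations of 11 same-numbered pairs ran from -0.26 to 0.29, with 2 over 0.1. With 3 libraries a group they cannot decide whether the numbers pair the libraries, and the labels do not say that they do.

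Of 24 combinations of member and set, 9 had an alternative with the opposite sign, none of them called. Under limma voom these were Mxd1 in VavCre Arid1b (0.0917), Myb (0.14) and Mybl1 (0.19) in MxCre-A2 and Myc in MxCre-A1b (-0.35). The Y term gave 0.44 for Myc in VavCre Arid1b, and -0.22 for Myc and 0.0088 for Max in MxCre-A2. Without the 3 libraries, Max (0.0082) and Mxd1 (0.11) in VavCre Arid1b, Myb (0.0481) and Mybl1 (0.22) in MxCre-A2, and Max in MxCre-A1b (-0.0153) turned. Leaving out 1 library turned the sign of 7 combinations: Myc (-0.2159 to 0.2192) and Mxd1 (-0.1196 to 0.1032) in VavCre Arid1b, Myb (-0.1645 to 0.1075), Mybl1 (-0.2412 to 0.23) and Myc (-0.0439 to 0.6553) in MxCre-A2, and Myc (-0.2492 to 0.716) and Max (-0.0277 to 0.2679) in MxCre-A1b. All 28 other list genes called by edgeR in a set kept their sign under each of the 14 alternatives, and each lost its call under 4 to 10 of them, at least 2 of these on leaving out 1 library.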
